A study of Rattus norvegicus with 26 samples.

Results

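Doxorubicin (Dox) is an anthracycline that traps DNA topoisomerase II on cut DNA. The genes examined here encode the topoisomerases Top2a, Top2b and Top1, the enzymes Tdp1 and Tdp2 that free DNA ends from trapped topoisomerases, the efflux pumps Abcb1a, Abcb1b, Abcc1 and Abcg2, and the carbonyl reductase Cbr1. They were chosen by name from what is known of the drug, though with earlier results of these data known. The transcript rows carrying each name were summed by gene ID. Of the 10 genes, 8 were analysed here among 17910 gene IDs, and all 8 were among the 15595 genes whose mean reached 5 normalized counts. Abcb1a and Abcb1b were not analysed here.

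RNA came from the dentate gyrus (DG), the granule cell region of the hippocampus, in 26 male F344 rats about 6 months of age, with 1 library per rat from 1 hemisphere. The Dox group (n = 8) was injected with 2 mg/kg of Dox weekly, 4 times in all. The Dox + ABT group (n = 8) received the same Dox and the senolytic ABT-263 (navitoclax), which blocks anti-apoptotic Bcl-2 proteins, at 12 mg/kg by oral gavage on courses of 5 consecutive days. The Veh group (n = 10) received gavage of vehicle and no Dox, and these rats belonged to a continuing study of aging. No group received ABT-263 alone, and RNA was taken after the treatment and behavioral testing had ended.

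As background, topoisomerase II passes one DNA duplex through another. Top2a is made by dividing cells, whereas Top2b is made by dividing cells and also by cells that no longer divide, neurons included. Dox holds the enzyme on the broken DNA. Tdp2 removes the remnant of topoisomerase II from a DNA end, and Tdp1 removes that of topoisomerase I. At the blood-brain barrier, endothelial cells carry the pump Abcg2 on the side facing the blood, where it moves drugs back out, and Abcc1 exports conjugated compounds from many cell types. Cbr1 reduces Dox to its alcohol, doxorubicinol. In a bulk sample, fewer cells of a type and less RNA per cell cannot be told apart.

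Reads per library, estimated from the step between low values of which 75.2% to 80.9% were whole in genes with 1 row but 34.8% to 45.1% in genes with several, ran from about 10146300 to 24274000, and the group medians were 16669900 (Veh), 15623000 (Dox) and 15099300 (Dox + ABT). The libraries were graded within groups along a leading principal component that held 28.4% of the within-group variance, and they were split on it into a first and a second kind. The split is a choice along a graded score, since the gap there was 10.2 score units and 2 larger gaps lay inside the first kind. The first kind held 16 libraries, with 4 of Veh, 5 of Dox and 7 of Dox + ABT, and the second kind held 10, with 6, 3 and 1. Ribosomal protein genes took 0.625% to 1.14% of the values in libraries of the first kind, against 1.20% to 1.94% for the second. Fold changes are therefore also given with a covariate for this kind, and for some genes with the log2 ribosomal share itself as a continuous covariate, which needs no split. The granule neuron markers Prox1, C1ql2, Dsp, Calb1 and Rbfox3 were all above the filter on low values, and their summed level was 10406 to 19599 normalized counts across the rats. Its group medians were 15504 (Veh), 14323 (Dox) and 12518 (Dox + ABT). Relative to Veh, C1ql2 was 0.46 lower in Dox + ABT (limma p = 0.000697, and p = 0.00812 with the covariate), Rbfox3 differed by -0.53 (limma p = 0.0141, and -0.17 with p = 0.245 under the covariate) and Prox1 by 0.22 (limma p = 0.134). Dsp differed by -0.13 (limma p = 0.276) and Calb1 by -0.07 (limma p = 0.573).

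Among the 8 genes, 1 passed the test in any comparison: Abcg2 was lower in Dox than in Veh. The test was limma on log2(value + 1) across all genes, with a call at p under 0.01. In Dox relative to Veh, 1 of 8 was called, where 2.87% of all genes tested were called. In Dox + ABT relative to Veh, 0 of 8 were called beside 7.84% of all genes, and in Dox relative to Dox + ABT 0 of 8 beside 4.03%. At an unadjusted p under 0.05 the counts in limma were 2, 4 and 3 of 8, beside 10.2%, 22.5% and 12.7% of all genes. With the Benjamini-Hochberg adjustment over all genes none of the 8 had an adjusted p under 0.05 in limma, and the lowest values were 0.288, 0.135 and 0.275. For all genes, 0.0192% passed in Dox relative to Veh and 0% in either other comparison. With a covariate for the kind of library, 1, 0 and 0 of the 8 were called, beside 2.7%, 1.37% and 4.76% of all genes. The median log2 difference of the 8 genes was 0.01, 0.26 and -0.17 in the same order, beside a median of 0.00, -0.00 and -0.00 over all genes tested.

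**Figure D1:**
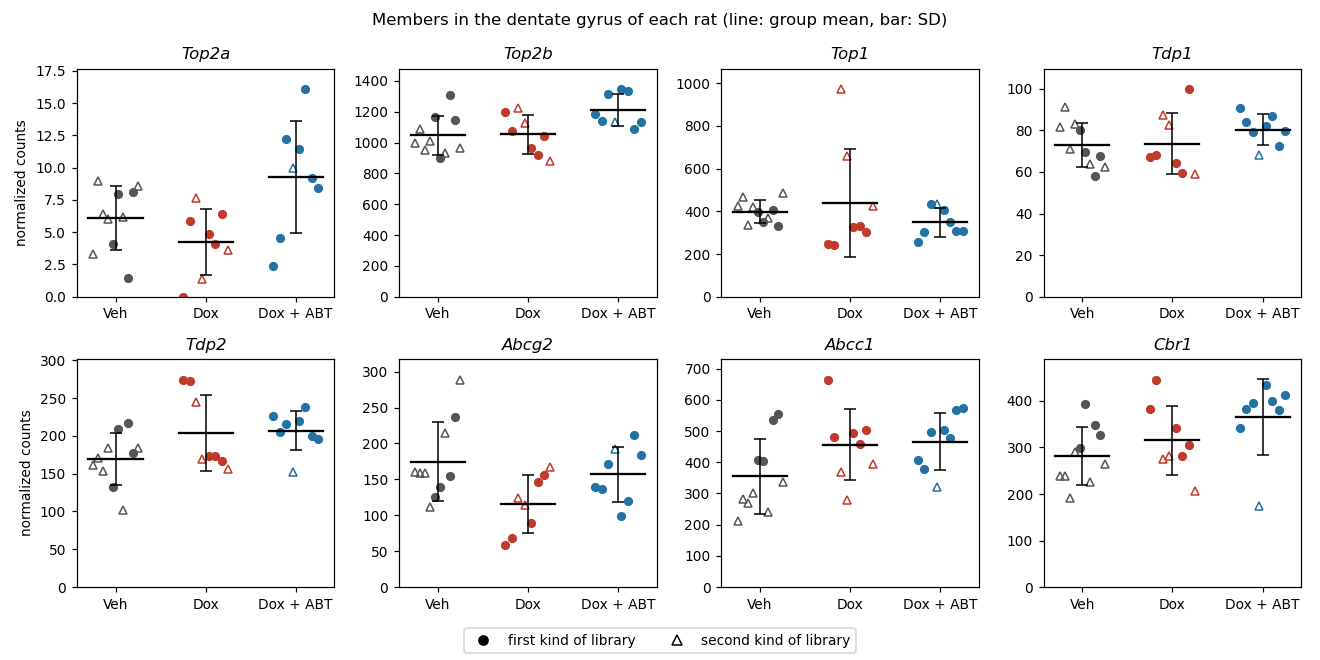
Normalized counts (vertical axes, from 0) of each of the 8 genes in each rat, by group; each point is 1 rat, filled circles are the first kind of library and open triangles the second, lines are group means and bars are SD. Abcg2 is lowest in Dox, where 3 of the 8 rats lie under the whole Veh range, and most of the triangles lie low for Abcc1 and Cbr1.

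Top2a, the isoform of dividing cells, was near the limit of measurement. It lay between 1.49 and 8.99 normalized counts in the Veh rats, with a median of 6.27. In Dox the lowest, median and highest values were 0, 4.50 and 7.69, and in Dox + ABT they were 2.36, 9.57 and 16.1. The groups overlapped, and each of the 8 Dox rats was below the median of Dox + ABT. The Dox mean was 4.25 ± 2.57 and that of Dox + ABT 9.27 ± 4.32 (SD, n = 8 each). They differed by -1.07 on the log2 scale (SE 0.41, limma p = 0.0143, adjusted p = 0.275). The difference from Veh was -0.58 in Dox (95% interval -1.37 to 0.22) and 0.49 in Dox + ABT (-0.30 to 1.28). With each rat left out these ran from -0.73 to -0.27, the latter without Dox rat 1, which was at 0, and from 0.33 to 0.70. The difference between Dox and Dox + ABT ran from -1.28 to -0.76 and passed p under 0.01 without Dox rat 5 or 13 or Dox + ABT rat 1 or 2, the lowest limma p being 0.00358. Both transcript rows of Top2a had a mean under 5, so these values rest on few reads.

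Top2b, the isoform that neurons also make, had a Veh mean of 1045 ± 129 (SD, n = 10), a Dox mean of 1053 ± 127 and a Dox + ABT mean of 1210 ± 105 (SD, n = 8 each). The Veh rats spanned 897 to 1310 around a median of 1000.3. The Dox rats spanned 877 to 1224 around 1058, and the Dox + ABT rats 1087 to 1345 around 1164. All 8 Dox + ABT rats were above the Veh median and 3 were above every Veh rat. Dox + ABT was above Veh by 0.21 on the log2 scale (SE 0.08, limma p = 0.0120, adjusted p = 0.135), which missed the threshold. It passed without Veh rat 5, 10 or 11, Dox rat 14 or Dox + ABT rat 11, at 0.21 to 0.25. It also passed with quantile scaling at 0.26 and with library weights at 0.27, which called 34% of all genes. With a covariate for the kind of library it was 0.17 (limma p = 0.0458), and with the ribosomal share 0.19 (limma p = 0.0319). Dox lay within 0.01 of Veh, with an interval from -0.15 to 0.17, and below Dox + ABT by a log2 difference of -0.20 (SE 0.08, limma p = 0.0221, adjusted p = 0.308), which passed at -0.24 without Dox rat 5, at -0.25 with quantile scaling and at -0.29 with library weights. With a covariate for the kind of library the difference from Dox + ABT was -0.18 (limma p = 0.0348), and with the ribosomal share -0.19 (limma p = 0.0264). Of the 5 granule neuron markers, 4 were lower and 1 was higher in Dox + ABT than in Veh. C1ql2 was the 1 called, beside 7.84% of all genes. The part of these cells in the Top2b difference was not tested. Of 5 transcript rows, the leading one, with 70.1% of the gene's values, was 0.30 above Veh in Dox + ABT (limma p = 0.00381 in the fit of rows). The other rows, in order of their mean, differed by 0.01, -0.09, 0.29 and 0.33 (limma p = 0.965, 0.555, 0.107 and 0.301).

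The promoters of the topoisomerase II genes are shown because their products are the targets of Dox and Top2a is used by dividing cells while Top2b is also used by cells that do not divide. Both come from RefSeq on GRCr8, a later build than the rn6 of the values. Each runs 5′ to 3′ from 250 bases before to 50 bases after the annotated start, and capitals mark the CCAAT box (CCAAT, or ATTGG on the other strand) and the GC box (GGGCGG or CCGCCC).
Top2a, chr10:84473044-84473343, minus strand: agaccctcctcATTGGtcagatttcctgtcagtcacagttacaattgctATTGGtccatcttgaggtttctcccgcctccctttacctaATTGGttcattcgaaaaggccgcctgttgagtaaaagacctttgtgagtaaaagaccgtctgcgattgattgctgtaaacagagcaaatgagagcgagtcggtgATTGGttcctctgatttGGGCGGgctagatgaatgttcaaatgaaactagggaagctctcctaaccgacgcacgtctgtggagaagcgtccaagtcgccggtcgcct
Top2b, chr15:11542415-11542714, minus strand: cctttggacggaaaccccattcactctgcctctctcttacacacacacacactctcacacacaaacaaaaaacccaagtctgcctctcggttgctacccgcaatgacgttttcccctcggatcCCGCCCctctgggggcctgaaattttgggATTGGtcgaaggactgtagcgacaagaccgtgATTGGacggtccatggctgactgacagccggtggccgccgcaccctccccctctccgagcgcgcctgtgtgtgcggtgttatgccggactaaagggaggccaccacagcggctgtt
The Top2a window held 4 CCAAT boxes and 1 GC box, and the Top2b window held 2 and 1. At least 1 CCAAT box was in 37.5% of 33469 promoter windows of the same length, and in 3 of the 10 genes examined here. These are matches of letters and not shown sites.

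Top1, which cuts a single DNA strand, varied widely among the Dox rats. The Veh rats spanned 332 to 485 normalized counts around a median of 403. The Dox rats spanned 241 to 972 around 331, and the Dox + ABT rats 256 to 434 around 328. Of the Dox rats, 4 lay under the whole Veh range and 2 over it, and the highest was Dox rat 5. The coefficient of variation was 57.8% for Dox, against 13.3% for Veh and 19.4% for Dox + ABT. The log2 difference from Veh was -0.02 in Dox (SE 0.19, limma p = 0.913), and it turned to 0.11 once the kind of library was a covariate. Both Dox rats over the Veh range were of the second kind, in which Top1 was 0.47 higher on the log2 scale within groups.

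Tdp1 had a Veh mean of 72.9 ± 10.6 (SD, n = 10), a Dox mean of 73.6 ± 14.7 and a Dox + ABT mean of 80.3 ± 7.37 (SD, n = 8 each). Its log2 difference from Veh was 0.00 in Dox (95% interval -0.23 to 0.24) and 0.15 in Dox + ABT (-0.09 to 0.38). Tdp2, the enzyme that acts on topoisomerase II ends, spanned 102 to 217 normalized counts in Veh around a median of 174. It spanned 157 to 274 in Dox around 174, and 153 to 239 in Dox + ABT around 210.2. In Dox, 3 of 8 rats were above every Veh rat and the other 5 were below the Veh median. The log2 difference from Veh was 0.26 in Dox (SE 0.14, limma p = 0.0719, adjusted p = 0.523) and 0.30 in Dox + ABT (SE 0.14, limma p = 0.0357, adjusted p = 0.194). The latter was 0.19 once the kind of library was a covariate (limma p = 0.181). With a block for the replicate number Tdp2 was 0.50 above Veh in Dox (limma p = 0.00556).

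**Figure D2:**
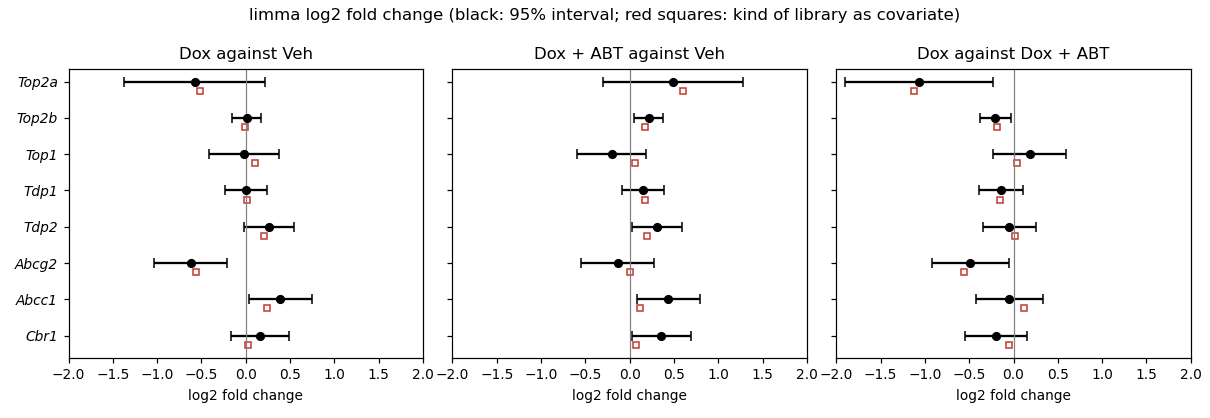
Log2 fold change (horizontal axes) of each of the 8 genes in the 3 comparisons; black points with bars are the limma estimate and its 95% interval, and red open squares the estimate with a covariate for the kind of library. Abcg2 is at -0.62 in Dox relative to Veh and at -0.14 in Dox + ABT relative to Veh, and the squares of Abcc1 and Cbr1 lie nearer to 0 than the points in both comparisons with Veh.

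Abcg2 was lower in Dox than in Veh, and its values in Dox + ABT lay close to those of Veh. The Veh rats spanned 111 to 289 normalized counts around a median of 158. The Dox rats spanned 58.8 to 167 around 119, and the Dox + ABT rats 99.6 to 211 around 155. Of the Dox rats, 7 of 8 were below the Veh median and 3 lay under the whole Veh range, so the groups overlapped. The Veh mean was 175 ± 55.0 (SD, n = 10), the Dox mean 115 ± 40.5 and the Dox + ABT mean 157 ± 38.6 (SD, n = 8 each). Abcg2 fell by 0.62 on the log2 scale in Dox relative to Veh (SE 0.20, 95% interval -1.04 to -0.21, limma p = 0.00468, adjusted p = 0.288), a decrease of 35.1%. The exact two-sided permutation test over the same rats gave p = 0.0153.

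The kind of library changed the Abcg2 estimate little, to -0.56 (limma p = 0.00881), as did the ribosomal share, to -0.62 (limma p = 0.00612). The call was lost when Veh rat 11 or 12 or Dox rat 1, 2 or 9 was left out, and over all 26 omissions the Abcg2 difference ran from -0.71 to -0.50 with p from 0.00181 to 0.0167. The call was also lost with library weights, at -0.41 (limma p = 0.0492), and within the first kind of library, at -0.72 (limma p = 0.0174). Dox + ABT differed from Veh by -0.14 (SE 0.20, 95% interval -0.55 to 0.28, limma p = 0.510). Dox differed from Dox + ABT by -0.49 (SE 0.21, limma p = 0.0304, adjusted p = 0.337), which missed the threshold. Abcg2 had 2 transcript rows, which held 59.7% and 40.3% of its values. In Dox relative to Veh they differed by -0.71 (limma p = 0.0253) and by -0.55 (limma p = 0.0672).

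The Abcg2 promoter is shown because this was the gene called. Capitals mark the GC box and the core of the xenobiotic response element (GCGTG, or CACGC on the other strand), to which the Ahr receptor binds with its partner.
Abcg2, chr4:89075224-89075523, plus strand: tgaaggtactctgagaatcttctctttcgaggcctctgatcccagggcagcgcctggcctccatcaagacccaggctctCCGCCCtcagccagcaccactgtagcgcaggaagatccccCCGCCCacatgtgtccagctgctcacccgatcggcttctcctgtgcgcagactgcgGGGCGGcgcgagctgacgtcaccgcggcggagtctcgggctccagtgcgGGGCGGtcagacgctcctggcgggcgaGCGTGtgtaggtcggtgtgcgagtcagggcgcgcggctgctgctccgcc
This GRCr8 window from RefSeq held 4 GC boxes and 1 xenobiotic core. The GC box was in 33.1% of the 33469 windows and in 9 of the 10 genes, and the core in 29.7% and in 5 of the 10. The TATA box (TATAAA or TTTATA) was in 14.2% of windows and in 0 of the 10. The counts describe letters, and binding was not measured.

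Because Abcg2 marks the vessel wall, its level was set against 10 endothelial markers within each rat. On this log2 ratio the Veh mean was -0.05 ± 0.19 (SD, n = 10), the Dox mean -0.72 ± 0.34 (SD, n = 8) and the Dox + ABT mean -0.19 ± 0.25 (SD, n = 8). The Veh rats spanned -0.33 to 0.26 and the Dox rats -1.10 to -0.26, so the groups overlapped, and all 8 Dox rats were below the Veh median. Dox differed from Veh by -0.67 (exact permutation test, two-sided, p = 6.86e-05, adjusted p = 0.000617 over 9 tests of ratios). Within the first kind of library the difference was -0.67 (5 Dox rats against 4 Veh rats, exact p = 0.0397, adjusted p = 0.179), which missed the threshold after adjustment, and in the second kind it was -0.68. Dox differed from Dox + ABT by -0.53 (exact p = 0.00482, adjusted p = 0.0217). Dox + ABT differed from Veh by -0.14 (exact p = 0.205, adjusted p = 0.264).

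The endothelial markers did not move as one, and the ratio depended on the marker. In Dox relative to Veh, 5 of the 10 were higher and 5 lower, with a median log2 difference of -0.04. Past p under 0.01, Kdr (0.81, limma p = 0.000538) and Vwf (0.89, limma p = 0.00185) were higher and Emcn (-0.85, limma p = 0.00331) was lower. Their summed level ran from 1567 to 5580 among Veh rats (median 2562), from 2415 to 4851 among Dox rats (median 3425) and from 1421 to 3599.7 among Dox + ABT rats (median 2414), and no marker was at 0 in any rat. Set against each marker alone, a choice made after the values were seen, Abcg2 was lower in Dox than in Veh for 9 of 10, and 5 of these had an exact p under 0.05. Against Vwf the difference was -1.51 (exact p = 2.29e-05, the smallest that these permutations can give), whereas against Tie1 it was -0.22 (exact p = 0.130) and against Emcn 0.22 (exact p = 0.351). With each marker left out of the mean in turn, the difference ran from -0.77 to -0.58. Relative to Dox + ABT, Abcg2 over a single marker was lower in Dox for 8 of 10, and 6 of these had an exact p under 0.05. It was higher against Emcn (0.58, exact p = 0.0325) and against Ocln (0.07, exact p = 0.669). The part of the higher markers in the ratio was not tested beyond these values.

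**Figure D3:**
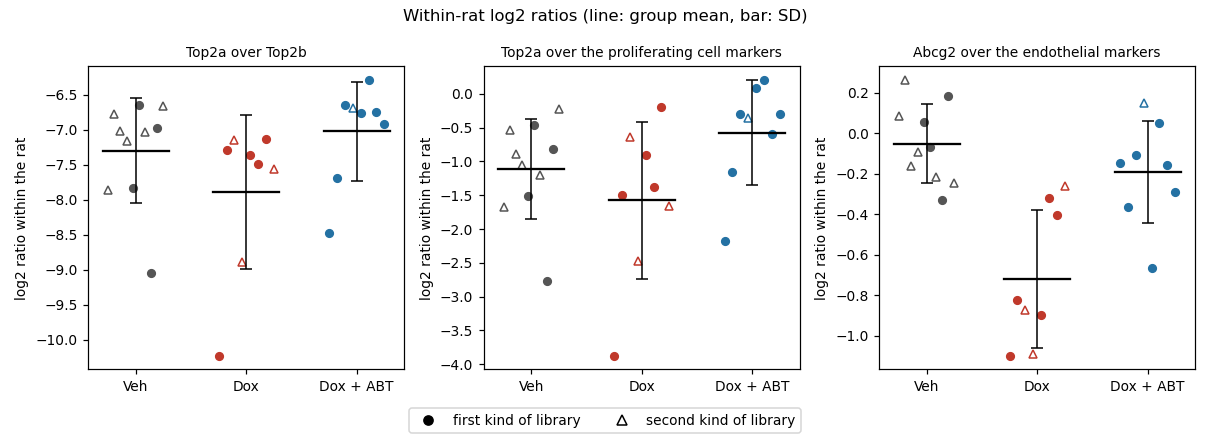
Within-rat log2 ratios (vertical axes) of Top2a over Top2b, Top2a over the proliferating cell markers and Abcg2 over the endothelial markers, by group; each point is 1 rat, filled circles are the first kind of library and open triangles the second, lines are group means and bars are SD. All 8 Dox rats lie below the Veh median for Abcg2 over the endothelial markers and for Top2a over Top2b, as do 5 of 8 for Top2a over the proliferating cell markers, and the groups overlap in every panel.

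The ratios of Top2a did not pass. Top2a over Top2b differed by -0.59 in Dox relative to Veh (exact p = 0.204, adjusted p = 0.264) and by -0.86 relative to Dox + ABT (exact p = 0.0799, adjusted p = 0.180). Top2a over the mean of 8 proliferation markers differed by -1.004 in Dox relative to Dox + ABT (exact p = 0.0561, adjusted p = 0.168). Of those 8 markers, 1 was called in Dox relative to Veh: Mki67 was 0.86 higher (SE 0.26, limma p = 0.00241), and the other 7 were lower and not called.

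Abcc1, the pump of conjugated compounds, spanned 211 to 556 normalized counts in Veh around a median of 320. It spanned 279 to 664 in Dox around 471, and 319 to 574 in Dox + ABT around 488. In each treated group 7 of 8 rats were above the Veh median. The log2 difference from Veh was 0.39 in Dox (SE 0.17, limma p = 0.0331, adjusted p = 0.459) and 0.44 in Dox + ABT (SE 0.17, limma p = 0.0181, adjusted p = 0.150). Abcc1 moved with the kind of library: libraries of the first kind had a mean of 494 ± 75.3 (SD, n = 16) and those of the second a mean of 301 ± 56.5 (SD, n = 10). With that kind as a covariate the differences from Veh were 0.24 (limma p = 0.0361) and 0.11 (limma p = 0.332), and with the ribosomal share they were 0.24 (limma p = 0.0479) and 0.17 (limma p = 0.170). Other settings gave larger values for Abcc1. For Dox relative to Veh it was 0.62 with limma's arrayWeights, which weight each library by its fit (limma p = 0.000114), and 0.60 with a block for the replicate number (limma p = 0.00913), and it passed at 0.47 without Veh rat 11 and at 0.49 without Dox rat 7. In Dox + ABT it was 0.64 with arrayWeights (limma p = 2.89e-05), and it passed at 0.51 to 0.52 without Veh rat 10 or 11 or Dox + ABT rat 4. With arrayWeights 20.2% of all genes were called in Dox and 34% in Dox + ABT relative to Veh.

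Cbr1, which forms doxorubicinol, spanned 191 to 394 normalized counts in Veh around a median of 278. It spanned 207 to 445 in Dox around 293, and 174 to 433 in Dox + ABT around 388. In Dox + ABT 4 of 8 rats were above every Veh rat, and rat 4 was below every Veh rat. The log2 difference from Veh was 0.16 in Dox (SE 0.16, limma p = 0.335) and 0.36 in Dox + ABT (SE 0.16, limma p = 0.0345, adjusted p = 0.191). Libraries of the first kind had a Cbr1 mean of 367 ± 48.2 (SD, n = 16), and those of the second 239 ± 39.7 (SD, n = 10). With the kind as a covariate the differences from Veh were 0.02 (limma p = 0.832) and 0.07 (limma p = 0.529), and with the ribosomal share 0.06 (limma p = 0.654) and 0.20 (limma p = 0.2002). With arrayWeights, which called 34% of all genes in this comparison, Cbr1 was 0.52 above Veh in Dox + ABT (limma p = 0.000267). Since 7 of 8 Dox + ABT libraries were of the first kind and 6 of 10 Veh libraries of the second, the pooled and the adjusted values of Abcc1 and Cbr1 differ most in that comparison.

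**Figure D4:**
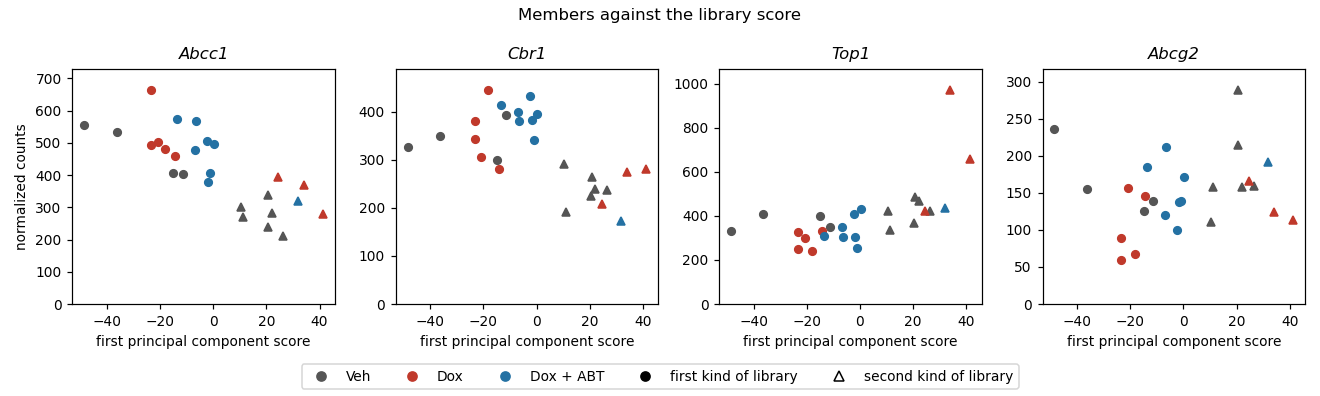
Normalized counts (vertical axes, from 0) of Abcc1, Cbr1, Top1 and Abcg2 against each library's score on the leading principal component within groups (horizontal axes, arbitrary units); each point is 1 rat, colored by group, with circles for the first kind of library and triangles for the second. Abcc1 and Cbr1 lie lower in the second kind (means 301 and 239 against 494 and 367), and Top1 higher.

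Other genes of the same pathways were read from lists, whose counts of calls stand beside 2.87% of all genes in Dox relative to Veh, 7.84% in Dox + ABT relative to Veh and 4.03% in Dox relative to Dox + ABT. A single call in a list is a value of that gene and not a result about the list. Of the other topoisomerases, 0 of 3 were called in Dox relative to Veh and 1 in Dox + ABT relative to Veh: Top3b was 0.40 higher (SE 0.14, limma p = 0.00634). Top3a was 0.42 above Veh in Dox (SE 0.15, limma p = 0.0112), and Top1mt, the mitochondrial enzyme, differed by -0.15 in Dox + ABT (limma p = 0.236). Between Dox and Dox + ABT 0 of the 3 were called. Of 21 genes that repair topoisomerase breaks, 0 were called in Dox and 1 in Dox + ABT relative to Veh, Mre11, a nuclease of broken ends (0.40, SE 0.13, limma p = 0.00438), a share under that of all genes. The protease Sprtn differed from Veh by 0.31 in Dox (limma p = 0.0436), and by 0.19 with a covariate for the kind of library (limma p = 0.0708). The median log2 difference of these 21 genes was 0.06 in Dox and 0.13 in Dox + ABT, beside 0.00 and -0.00 over all genes. Dclre1c was 0.70 above Veh in Dox + ABT (limma p = 0.0161), and 0.28 with that covariate (limma p = 0.224). Between Dox and Dox + ABT 0 of the 21 were called, with Prkdc at -0.28 (limma p = 0.0510) and Nhej1 at 0.51 (limma p = 0.0530).

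Of 8 other efflux pumps, 0 were called in Dox relative to Veh, where Abcc5, a nucleotide exporter, differed by 0.30 (limma p = 0.0641, and 0.16 with p = 0.0902 under the covariate) and Abcc2 by -0.24 (limma p = 0.0731). Abcc5 was 0.51 higher in Dox + ABT than in Veh (SE 0.16, limma p = 0.00272). Between Dox and Dox + ABT 0 of the 8 were called, with Abcc6 at -0.55 (limma p = 0.0537). Of 7 regulators of efflux pumps, the xenobiotic receptor Ahr was 0.60 higher in Dox + ABT than in Veh (SE 0.20, limma p = 0.00685). The nuclear receptor Nr1i3 was lower in Dox than in Dox + ABT by a log2 difference of -0.40 (SE 0.13, limma p = 0.00472), and it differed from Veh by -0.27 in Dox (limma p = 0.0385). Nfe2l2, the regulator of antioxidant genes, differed from Veh by -0.17 in Dox + ABT (limma p = 0.115). With a covariate for the kind of library, the log2 differences of Top3b, Mre11, Abcc5 and Ahr in Dox + ABT relative to Veh were 0.14, 0.18, 0.22 and 0.40. Their limma p ran from 0.0355 for Abcc5 to 0.106 for Top3b, which missed the threshold.

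Among the pathway lists, the uptake carriers of the barrier held the most calls in Dox relative to Veh. Of 9 tested, 3 were lower in Dox than in Veh and 0 higher at p under 0.01, with a median log2 difference of -0.13. Slco1c1, a thyroxine carrier, spanned 549 to 1199 normalized counts in Veh around a median of 692. The Dox rats spanned 180 to 676 around 483, and the Dox + ABT rats 594 to 734 around 665. All 8 Dox rats were below the Veh median and 5 lay under the whole Veh range. Slco1c1 fell by 0.74 on the log2 scale (SE 0.19, limma p = 0.000627, adjusted p = 0.148). Slco1a4, an organic anion carrier, fell by 0.96 (SE 0.27, limma p = 0.00110, adjusted p = 0.170) and Slco2b1 by 0.49 (SE 0.14, limma p = 0.00163, adjusted p = 0.198). With a covariate for the kind of library their limma p was 0.00104, 0.00173 and 0.00209 in the same order.

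Relative to Dox + ABT, 2 of the 9 carriers were lower in Dox and 2 were higher. Slco1a4 differed by -0.91 (SE 0.28, limma p = 0.00289) and Slco1c1 by -0.65 (SE 0.20, limma p = 0.00367). The glucose carrier Slc2a1 was higher in Dox by 0.47 (SE 0.15, limma p = 0.00295) and the lipid carrier Mfsd2a by 0.63 (SE 0.23, limma p = 0.00993). Mfsd2a spanned 279 to 1241 normalized counts in Dox around a median of 404, and 215 to 422 in Dox + ABT around 335. Among the Dox rats, rat 2 was the highest for Mfsd2a and Slc2a1 and the lowest for Slco1a4, Slco1c1 and Slco2b1. With a covariate for the kind of library 3 were lower and 2 higher, the added call being Slco2b1 (-0.36, limma p = 0.00827, against -0.26 and p = 0.0852 without it). Slc2a1 differed from Veh by 0.37 in Dox (limma p = 0.0127). In Dox + ABT relative to Veh 0 of the 9 were called, with Slc22a5 at 0.36 (limma p = 0.0186, and 0.09 with p = 0.346 under the covariate for the kind of library) and Slc7a5 at -0.26 (limma p = 0.0772).

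**Figure D5:**
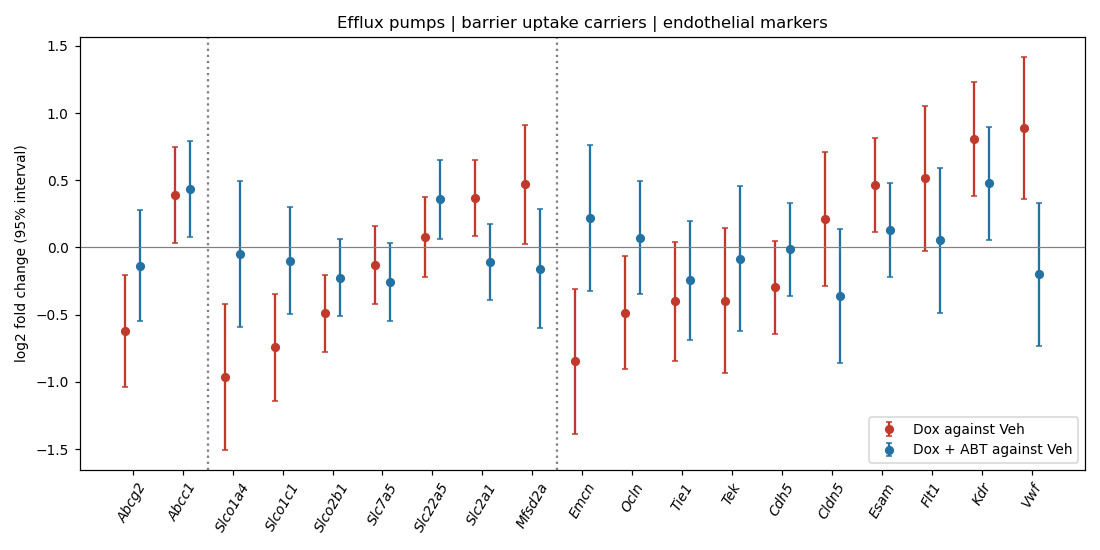
Log2 fold change with its 95% interval (vertical axis) of Abcg2 and Abcc1, of 7 barrier uptake carriers with a call or a value named in the text, and of the 10 endothelial markers, in Dox against Veh (red) and Dox + ABT against Veh (blue). In Dox, Slco1a4, Slco1c1 and Slco2b1 lie below 0 at -0.96, -0.74 and -0.49, while the endothelial markers run from -0.85 for Emcn to 0.89 for Vwf.

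Of 11 other carbonyl and aldo-keto reductases, 1 was called in Dox relative to Veh. Akr1c14, a hydroxysteroid dehydrogenase, spanned 2.20 to 16.5 normalized counts among Veh rats, 2.07 to 5.69 among Dox rats and 4.82 to 29.0 among Dox + ABT rats, which is near the filter on low values. It fell by 0.98 in Dox relative to Veh (SE 0.34, limma p = 0.00697) and by 1.32 relative to Dox + ABT (SE 0.35, limma p = 0.00085). Akr1b8 differed by -0.26 in Dox relative to Dox + ABT (limma p = 0.0675). Cbr4 differed from Veh by 0.31 in Dox (limma p = 0.0107), and Dhrs4 by -0.37 (limma p = 0.0227) and Akr7a2 by -0.37 (limma p = 0.0254) in Dox + ABT. These became, with a covariate for the kind of library, 0.34 for Cbr4 (limma p = 0.00542, past the threshold), -0.26 for Dhrs4 (limma p = 0.122) and -0.13 for Akr7a2 (limma p = 0.323). Of 10 enzymes that can pass electrons to quinones such as Dox, 0 were called in Dox and 2 were lower in Dox + ABT relative to Veh. These were Por, the electron donor of cytochromes P450, at -0.34 (SE 0.09, limma p = 0.00113) and Ndufv1 of complex I at -0.38 (SE 0.14, limma p = 0.00887). With a covariate for the kind of library they differed by -0.19 (limma p = 0.0144) and -0.20 (limma p = 0.105), and neither was called. The nitric oxide synthase Nos3 differed by 0.68 in Dox relative to Dox + ABT (limma p = 0.0261). In Dox relative to Veh the smallest p values of this list were those of Nos1 (-0.13, limma p = 0.233) and Xdh (0.24, limma p = 0.274).

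Markers of other cells were also read. In Dox relative to Veh at p under 0.01, 4 of 6 microglial, 3 of 5 astrocyte and 2 of 6 oligodendrocyte markers were lower, beside 2.87% of all genes called in either direction. None of these lists had a higher call in that comparison. With a covariate for the kind of library, 2 microglial, 3 astrocyte and 1 oligodendrocyte marker were called lower, beside 2.7% of all genes. Of the 4 red blood cell markers 0 were called without that covariate (log2 differences of 0.79 to 1.21), and 4 were called higher with it. The summed astrocyte markers ran from 36226 to 56558 among Veh rats (median 41539), from 29841 to 37275 among Dox rats (median 31848) and from 34806 to 50607 among Dox + ABT rats (median 37832). The summed microglial markers had medians of 4038, 2859 and 2697 in the same order. Of the 7 mural cell markers, 0 were called in Dox relative to Veh. In Dox + ABT relative to Veh, 1 of 7 mural, 1 of 6 microglial, 1 of 5 astrocyte and 0 of 6 oligodendrocyte markers were called lower, beside 7.84% of all genes. These were Notch3 (-0.56, limma p = 0.000383), Csf1r (-0.48, limma p = 0.00199) and Aldh1l1 (-0.47, limma p = 0.00175), and with a covariate for the kind of library the limma p was 0.00303, 0.0295 and 0.0183 in the same order. The summed red blood cell markers ran from 2327 to 25997 among Veh rats, 3608 to 128552 among Dox rats and 3172 to 11576 among Dox + ABT rats, and those of the choroid plexus from 15.2 to 125, 14.6 to 304 and 28.4 to 357. The part of these cells in the differences of Abcg2 and of the carriers was not tested.

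Across the 26 rats, with group and kind of library removed, the genes whose log2 values went most closely with Abcg2 were Olfml2a (r = 0.86), Thsd1 (r = 0.85) and Ccn2 (r = 0.85). The points share a library and its scaling, and r is given as a description. In Dox relative to Veh, Ccn2 was 0.98 higher (limma p = 0.000714) while Abcg2 was lower, and Olfml2a differed by -0.19 (limma p = 0.493). Abcg2 had an r of 0.33 to 0.82 with the endothelial markers and of -0.46 to 0.83 with the uptake carriers, Slc22a8 being the highest. Closest to Abcc1 were Csmd1 (r = 0.87), Dip2b (r = 0.84) and Kdm3b (r = 0.83), and closest to Top1 were Bod1l1 (r = 0.92), Nmt2 (r = 0.91) and Ankrd12 (r = 0.89). Closest to Tdp2 were Pus10 (r = 0.92), Vwa3a (r = 0.89) and Iqub (r = 0.88), and closest to Top2b were AABR07014804.1 (r = 0.88), Mbd5 (r = 0.80) and Tex15 (r = 0.80). Closest to Tdp1 were Thg1l (r = 0.81), Ndor1 (r = 0.77) and Mark2 (r = 0.74). Closest to Cbr1 were Cep162 (r = 0.80), Rnf2 (r = 0.79) and Marchf7 (r = 0.79), and closest to the low Top2a were Rnf185 (r = 0.72), Serinc5 (r = 0.71) and Syk (r = 0.70). Among the 8 genes themselves the highest r was 0.64, between Tdp2 and Cbr1.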

How the data were processed

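The DG libraries of 26 rats were grouped by the treatment in the labels and numbered as there. The deposited values are a signal of normalized counts, not raw reads: the authors selected poly(A) RNA, sequenced it on an Ion Proton, aligned reads to rn6 with STAR 2.5.3a in Partek Flow and scaled each library by the Median Ratio method. Per the paper's methods, features with a low mean were excluded and DESeq2 was applied at p under 0.01, which is the call used here. Whole reads were not recovered (75.2% to 80.9% of low values of genes with 1 row and 34.8% to 45.1% of those with several), so no count test was run. Median Ratio scaling, by the median over genes of each library's ratio to a reference, leaves only relative changes, and summing the 24012 transcript rows by gene ID hides shifts between isoforms.

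Differences were tested with limma 3.58.1 in R 4.3.3 (variance trend, log2(value + 1), all 26 rats in 1 fit, two-sided, mean of at least 5) and adjusted by the Benjamini-Hochberg method. The fit was tested on simulated data. Ratios within a rat were tested by exact permutation. The labels name each rat as a separate sample. The genes and gene lists were chosen with earlier results of these data known. All 8 genes analysed were named, with, from each pathway list, the 2 genes of smallest p in each comparison and those called, and the 3 genes of highest r among genes whose mean reached 50; values of some genes that this rule selects are not reported here. Alternatives were other pseudocounts, filters, scalings (trimmed means of M values, TMM, and quantiles), weights and fits, transcript rows, the kind of library, a block for the replicate number, and omission of each rat in turn; the fits within the first kind of library, those with the ribosomal share as a covariate and the exact tests of single genes were added after seeing the data. Gene-level lengths were not used, so levels are not compared between genes. Promoters came from RefSeq (GRCr8) by symbol for 10 of 10 genes. Figures were drawn with matplotlib 3.10.9 in Python 3.11.15.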

Additional observations from a re-analysis of the deposited data

Results flagged for a closer look

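In the Dox + ABT group, rat 4 stood apart from the other 7 rats for 2 of the 8 genes on the log2(value + 1) scale, and for 1 of them on the normalized counts themselves. Cbr1 was at 173.8 normalized counts in this rat and at 342 to 433 in the others, with a median of 395. Tdp2 was at 152.7 in this rat and at 196 to 239 in the others, with a median of 215. On the log2 scale the gap to the nearest rat was 0.741 of the group's range for Cbr1 and 0.564 for Tdp2, against a critical value of 0.526. On the normalized counts it was 0.649 for Cbr1 and 0.509 for Tdp2, which is under that value. This was the only Dox + ABT library of the second kind, and within groups Cbr1 and Tdp2 were lower in that kind (log2 differences of -0.50 and -0.19). Of 24 groups of values examined, 2 were set apart in this way on the log2 scale and 1 on the normalized counts, where chance alone would set apart about 1 in 20. Without this rat Cbr1 was 0.50 above Veh in Dox + ABT (limma p = 0.000923), a comparison of 7 libraries of the first kind with a Veh group in which 6 of 10 were of the second. With all rats and a covariate for the kind of library the difference was 0.07 (limma p = 0.529).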

How the results depend on the processing

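The log2 difference of Abcg2 in Dox relative to Veh was negative under each alternative tried, from -0.76 with the replicate block to -0.41 with arrayWeights (limma p = 0.0492), where it missed the threshold. It also missed it in the leading transcript row, inside the first kind of library and by the exact test. The number of the 8 genes called in Dox relative to Veh was 3 with the replicate block (Abcg2, Tdp2 and Abcc1; 4.91% of all genes), 1 with arrayWeights (Abcc1 and not Abcg2; 20.2%), 0 with transcript rows (2.36% of rows), 0 within the first kind of library (4.76%), and 0 to 2 with each rat left out (1.71% to 4.53%). In Dox + ABT relative to Veh it was 4 with arrayWeights (Top2b, Tdp2, Abcc1 and Cbr1; 34% of all genes), 1 with quantiles (7.84%), 1 with transcript rows (6.39%) and 0 to 2 with each rat left out (4.46% to 13.7%). In Dox relative to Dox + ABT it was 1 with a pseudocount of 5 (4.07%), 2 with arrayWeights (Top2a and Top2b; 10.3%), 1 with quantiles (4.09%) and 0 to 2 with each rat left out (2.69% to 5.05%).

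The ratio of Abcg2 to the endothelial markers kept its sign. Dox against Veh it was -0.67 within the first kind of library (adjusted p = 0.179) and against Dox + ABT -0.47 (adjusted p = 0.148), by exact permutation over fewer rats. With the replicate block it was -0.77 over 5 pairs and -0.54 over 3 pairs (adjusted p = 0.45 for each). The smallest exact p these pairs allow is 0.0625 and 0.25, so the block could not reach the threshold and says nothing about it. With each rat left out, the ratio of Top2a to Top2b in Dox against Dox + ABT ran from -1.07 to -0.53, and that of Top2a to the proliferation markers from -1.23 to -0.68, and in Dox + ABT against Veh from 0.36 to 0.77; each passed an adjusted p under 0.05 only without Dox + ABT rat 1.

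Differences near 0 changed sign, and the cause was not tested. In Dox against Veh, Top2b was -0.0223 with arrayWeights, -0.0085 with a covariate for the kind of library, -0.0064 with the ribosomal share, -0.112 within the first kind and -0.0218 to 0.0476 with each rat left out. Top1 was 0.105 with the covariate, 0.0798 with the ribosomal share and -0.209 to 0.0775 with each rat left out. Tdp1 was -0.106 with arrayWeights, -0.0020 with TMM, -0.0901 with the replicate block and -0.0623 to 0.0441 with each rat left out. In Dox + ABT against Veh, the covariate gave 0.0636 for Top1 and 0.0035 for Abcg2. In Dox against Dox + ABT, Top1 was -0.036 with arrayWeights, -0.207 within the first kind and -0.0056 to 0.28 with each rat left out. Tdp2 was 0.012 with the covariate, 0.27 with the replicate block and -0.11 to 0.0027 with each rat left out, and Abcc1 was 0.12 with the covariate, 0.0681 with the ribosomal share, 0.17 with the block, 0.10 within the first kind and -0.13 to 0.0482.

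Replicate numbers ran within groups. Over 16 same-numbered pairs the correlation of deviations ran from -0.17 to 0.30, and 6 were over 0.1. Pairs with different numbers were not compared, so these values cannot decide whether the numbers paired the rats. Planned ratios with Abcb1a were not run. Top2a, at 6.51 normalized counts on average, is limited by depth.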
